A study of Mus musculus with 8 samples.

Results

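Reactive astrocyte genes are described here by 16 probe sets, those annotated to Gfap, Vim, Nes, Serpina3n, Osmr, Lcn2, Timp1, S1pr3 or Cd44 alone, out of 22626 probe sets that are not array controls. All 9 genes were on the array. The mutant group was 4 mice with 2 mps copies of Gusb (mps/mps), the gene of the lysosomal enzyme beta-glucuronidase, a model of mucopolysaccharidosis VII. The normal group was 4 carriers with 1 mps copy (mps/+), and both groups shared the B6.C-H2-Kbm1/ByBir background. The allele is inherited and so present in every cell type, not in astrocytes alone. Each array held RNA of the right hippocampus of 1 animal. Mutants 1 to 4 were a female of 38.3 weeks, males of 25.6 and 25.6 weeks and a female of 19.6 weeks. Normals 1 to 4 were a female of 38.3 weeks, a male of 25.6 weeks, a male of 19.6 weeks and a female of 14.6 weeks.

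Astrocytes respond to injury, storage and inflammation by a state called reactive astrogliosis. The best known sign is more of the intermediate filament protein encoded by Gfap, often with vimentin and nestin, the other filaments of immature and reactive astrocytes. Cytokines of the interleukin 6 family act through receptors that share gp130, the product of Il6st, and through the transcription factor STAT3, which drives Gfap in astrocytes. Secreted proteins such as lipocalin 2 and surface receptors such as CD44 are also induced in mouse models of gliosis.

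The values are log2 expression per probe set, so a difference of 1 is a 2-fold difference. The highest value of 27 control probe sets for bacterial transcripts, taken as absent from the tissue, was 3.72. Of the 16 probe sets, 11 exceeded it on all 8 arrays and 3 on none. The last 3 were Timp1, 1 of 3 for Nes and 1 of 2 for Cd44.

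The arrays are labelled hippocampus but differed in tissue content. Striatal genes averaged 6.52 to 7.47 in mutants and 7.25 to 10.3 in normals, with normals 1, 3 and 4 the 3 highest. The 3 measured CA1 genes, markers of a hippocampal pyramidal field, averaged 7.43 to 9.36 in mutants and 7.82 to 9.43 in normals. RNA of normal 1 stood apart, its actin and Gapdh controls reading 3.58 higher at the 3 prime than at the 5 prime end, against 0.222 to 0.752 on the other arrays. Array medians lay between 6.09 and 6.17, and the number of animals limits the precision.

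Gfap was the member that rose in mutants, by 4.82-fold and 6.24-fold on its 2 probe sets. The other 8 genes did not pass over all probe sets, but Vim, Serpina3n, 1 probe set of Osmr and 1 of Cd44 were higher in each mutant than in each normal, as were Timp1 and the second Osmr probe set at or near the level of absent controls. Nes and S1pr3 showed no such separation, and Lcn2 was high in single animals of both groups. In limma, with Benjamini-Hochberg adjustment over 22626 probe sets, 2 of the 16 probe sets rose and 0 fell, against 0.0796% of all probe sets that rose and 0.00884% that fell. At an unadjusted p under 0.05, 9 of the 16 were higher and 0 lower, against 3.14% and 2.81% of all. Every mutant lay above every normal for 10 of the 16, against 1.81% of all probe sets, and every mutant lay below every normal for 0 of the 16, against 1.75%. The 16 had a median difference of 0.62, and all probe sets had one of -0.012. Probe sets of 1 gene read the same RNA, so these counts hold repeated measurements. The members were chosen with earlier results of these data known, so the shares describe them and are no test of the set.

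**Figure D1:**
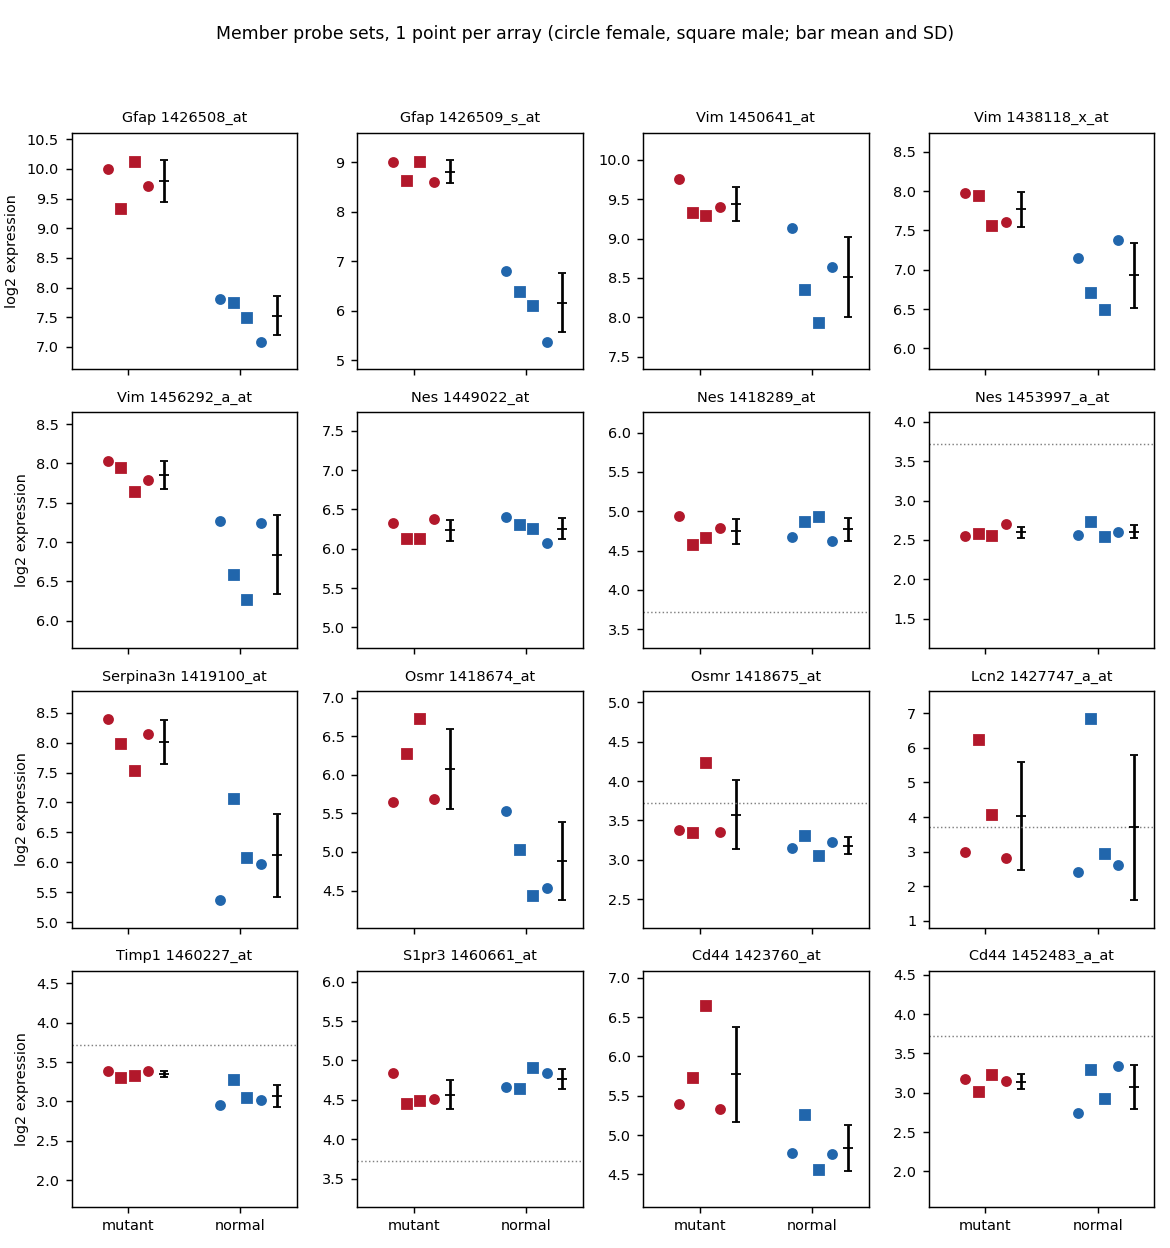
Log2 expression of the 16 probe sets on each array, mutants left of normals, with circles for females, squares for males and bars for the mean and SD of 4 animals. The dotted line marks the highest absent control, 3.72, where it falls within a panel; for Gfap 1426508_at the mutants lie at 9.33 to 10.1 and the normals at 7.08 to 7.80.

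Gfap encodes glial fibrillary acidic protein, the filament by which reactive astrocytes are usually recognised. Probe set 1426508_at read 9.999, 9.33, 10.1 and 9.72 in mutants 1 to 4, against 7.80, 7.73, 7.48 and 7.08 in normals 1 to 4. The lowest mutant stood 1.52 above the highest normal, a gap wider than the range within either group. The difference was 2.27 ± 0.22 (SE), or 4.82-fold, with means of 9.79 ± 0.35 in mutants and 7.52 ± 0.33 in normals (SD, n = 4 each, limma adjusted p = 0.0152). Probe set 1426509_s_at read 9.01, 8.61, 9.01 and 8.61 in mutants 1 to 4, against 6.80, 6.39, 6.11 and 5.37 in normals 1 to 4. Its gap between the groups was 1.81, and its difference was 2.64 ± 0.28 (SE), or 6.24-fold, with means of 8.81 ± 0.23 in mutants and 6.17 ± 0.60 in normals (SD, n = 4 each, limma adjusted p = 0.0246). By size of increase these probe sets ranked 11 and 7 of 22626. In bulk tissue, more astrocytes and more Gfap RNA per astrocyte cannot be told apart.

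The size of the Gfap difference depended little on which animal was left out, but the call did. Leaving out 1 animal gave differences of 2.12 to 2.42 for 1426508_at and 2.38 to 2.85 for 1426509_s_at, on both sides of the threshold. The first did not pass without mutant 1 (2.20), mutant 3 (2.16), mutant 4 (2.29) or normal 3 (2.25). The second did not pass without mutant 1 (2.58), mutant 2 (2.71), mutant 3 (2.57), mutant 4 (2.71) or normal 3 (2.62). Without normal 1, whose RNA stood apart, both passed (2.36 and 2.85). With sex as a term the differences stayed at 2.27 and 2.64, but neither passed (limma adjusted p = 0.0556 and 0.0675).

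Vim encodes vimentin, which forms filaments together with the Gfap protein and is also made by vascular, meningeal and microglial cells. Its brightest probe set, 1450641_at, read 9.76, 9.32, 9.28 and 9.40 in mutants 1 to 4, against 9.13, 8.35, 7.92 and 8.64 in normals 1 to 4. All mutants were higher than all normals, but normal 1 came within 0.15 of the lowest mutant. The difference was 0.93 ± 0.25 (SE) and did not pass (limma adjusted p = 0.529). The other probe sets differed by 1.01 (1456292_a_at, adjusted p = 0.416) and 0.84 (1438118_x_at, adjusted p = 0.488), again with no overlap between groups. The 95% intervals of the 3 ran from 0.35 at the lowest to 1.56 at the highest, so the probe sets gave differences of like size.

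Nes encodes nestin, a filament of neural precursors that some reactive astrocytes take up again. Its brightest probe set, 1449022_at, read 6.33, 6.12, 6.12 and 6.37 in mutants 1 to 4, against 6.40, 6.30, 6.25 and 6.07 in normals 1 to 4. The groups overlapped fully, and the difference was -0.020 with a 95% interval of -0.29 to 0.25. Probe set 1418289_at differed by -0.025, with an interval of -0.31 to 0.26, and 1453997_a_at stayed at the level of absent controls on all arrays (2.53 to 2.72). An increase in Nes as large as the lower bound of Gfap 1426508_at, 1.77, lay outside the intervals of both detected Nes probe sets.

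To show the sequence at the start of the genes, RefSeq promoters (GRCm38.p6) were taken for Gfap, the gene that rose, and for Vim and Osmr. Both are members with a motif match and a probe set above the absent controls on all arrays without overlap between groups. Timp1, with a match and no overlap but at the level of absent controls, is not shown. Each run covers 250 bases before the annotated start and 15 after it, 5′ to 3′ on the gene's own strand. All 9 genes matched the table. Capitals mark matches to STAT (TTCNNNGAA), AP-1 (TGANTCA), NF-kB, a TATA box (TATAAA) or a CCAAT box (CCAAT), searched on both strands of the 300-base windows.
Gfap, chr11:102897186-102897450, minus strand: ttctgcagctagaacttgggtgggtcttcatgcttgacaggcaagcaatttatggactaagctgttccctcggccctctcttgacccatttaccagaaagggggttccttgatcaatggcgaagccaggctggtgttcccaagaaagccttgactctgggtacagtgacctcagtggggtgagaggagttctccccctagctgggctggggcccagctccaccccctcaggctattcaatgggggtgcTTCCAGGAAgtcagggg
Vim, chr2:13574061-13574325, plus strand: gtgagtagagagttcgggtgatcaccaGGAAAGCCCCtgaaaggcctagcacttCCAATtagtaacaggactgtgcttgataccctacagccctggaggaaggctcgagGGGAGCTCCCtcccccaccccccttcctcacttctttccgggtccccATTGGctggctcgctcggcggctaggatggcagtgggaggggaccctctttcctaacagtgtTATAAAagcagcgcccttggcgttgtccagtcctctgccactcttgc
Osmr, chr15:6874299-6874563, minus strand: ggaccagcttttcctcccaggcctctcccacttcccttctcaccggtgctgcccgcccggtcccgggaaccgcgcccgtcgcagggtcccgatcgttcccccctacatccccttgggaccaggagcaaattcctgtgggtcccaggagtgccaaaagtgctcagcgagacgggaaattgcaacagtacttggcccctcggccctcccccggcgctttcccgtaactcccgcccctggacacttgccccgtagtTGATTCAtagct
The Gfap window held 1 STAT match, which begins 2 bases before the start, and 8.30% of 32851 promoter windows hold one. The Osmr window held 1 AP-1 match just after the start (7.81% of windows). The Vim window held matches to NF-kB (5.8%), a TATA box (13.6%) and a CCAAT box (37.4%). Of the other members, Timp1 had a CCAAT match, and Nes, Serpina3n, Lcn2, S1pr3 and Cd44 had none of the 5 motifs. A match describes these letters and shows no binding.

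Osmr encodes the receptor subunit that pairs with gp130 to bind oncostatin M. Probe set 1418674_at read 5.64, 6.26, 6.73 and 5.68 in mutants 1 to 4, against 5.53, 5.03, 4.43 and 4.53 in normals 1 to 4. The male mutants, 2 and 3, were highest, and mutant 1 was only 0.11 above normal 1, the female of the same age. The difference was 1.20 ± 0.32 (SE) and did not pass (limma adjusted p = 0.519). Probe set 1418675_at exceeded the absent controls on 1 array, mutant 3 (4.23), and gave no usable fold.

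Cd44 encodes the hyaluronan receptor CD44, which reactive astrocytes, microglia and meningeal cells can carry. Probe set 1423760_at read 5.40, 5.73, 6.64 and 5.33 in mutants 1 to 4, against 4.78, 5.25, 4.56 and 4.75 in normals 1 to 4. The groups did not overlap, with 0.077 between mutant 4 and normal 2, and mutant 3 stood highest, as it did for Osmr. The difference was 0.94 ± 0.30 (SE) and did not pass (limma adjusted p = 0.688), and 1452483_a_at stayed at the level of absent controls (2.75 to 3.34). Over 13 meningeal genes, mutants 1 to 4 averaged 6.64, 5.99, 6.98 and 6.22, against 5.12 to 5.97 in normals. Mutant 3 was thus highest there too. Mutant 2, second highest for Osmr and Cd44, had the lowest meningeal mean of the mutants, and mutant 1 had the second highest but the lowest Osmr value of the mutants. The part of those cells in the Osmr and Cd44 values was not tested.

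S1pr3 encodes a receptor for sphingosine 1-phosphate and had a slightly lower mean in mutants that did not pass. It read 4.84, 4.44, 4.48 and 4.50 in mutants 1 to 4, against 4.66, 4.64, 4.90 and 4.84 in normals 1 to 4. Mutants 2, 3 and 4 lay below all normals and mutant 1 within their range. The difference was -0.19, with a 95% interval of -0.48 to 0.094 (limma adjusted p = 0.900).

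Serpina3n encodes a secreted serine protease inhibitor and had the largest difference after Gfap. It read 8.40, 7.98, 7.52 and 8.14 in mutants 1 to 4, against 5.37, 7.05, 6.08 and 5.97 in normals 1 to 4. The groups did not overlap, and the normals ranged more widely than the mutants, with normal 2 highest. The means were 8.01 ± 0.37 in mutants and 6.12 ± 0.70 in normals (SD, n = 4 each), a difference of 1.89 ± 0.34 (SE) or 3.71-fold that did not pass (limma adjusted p = 0.193). It passed without normal 2 (2.20, limma adjusted p = 0.0482) and with array weights (1.82, adjusted p = 0.0404).

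Lcn2 encodes lipocalin 2, a secreted iron-siderophore binding protein that is strongly induced by inflammation. It read 2.98, 6.23, 4.06 and 2.83 in mutants 1 to 4, against 2.41, 6.84, 2.94 and 2.61 in normals 1 to 4. The highest array was normal 2, followed by mutant 2, both males of 25.6 weeks, and mutant 3, the remaining male of that age, came next. The other 5 arrays lay at the level of absent controls. The difference of 0.33 had a 95% interval of -2.22 to 2.87 and therefore showed no direction (limma adjusted p = 0.984).

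Timp1 encodes an inhibitor of matrix metalloproteinases. It read 3.38, 3.30, 3.32 and 3.38 in mutants 1 to 4, against 2.96, 3.28, 3.04 and 3.02 in normals 1 to 4. The groups did not overlap, by 0.026, but all 8 values lay within the range of absent controls, so no fold is given (limma adjusted p = 0.808).

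**Figure D2:**
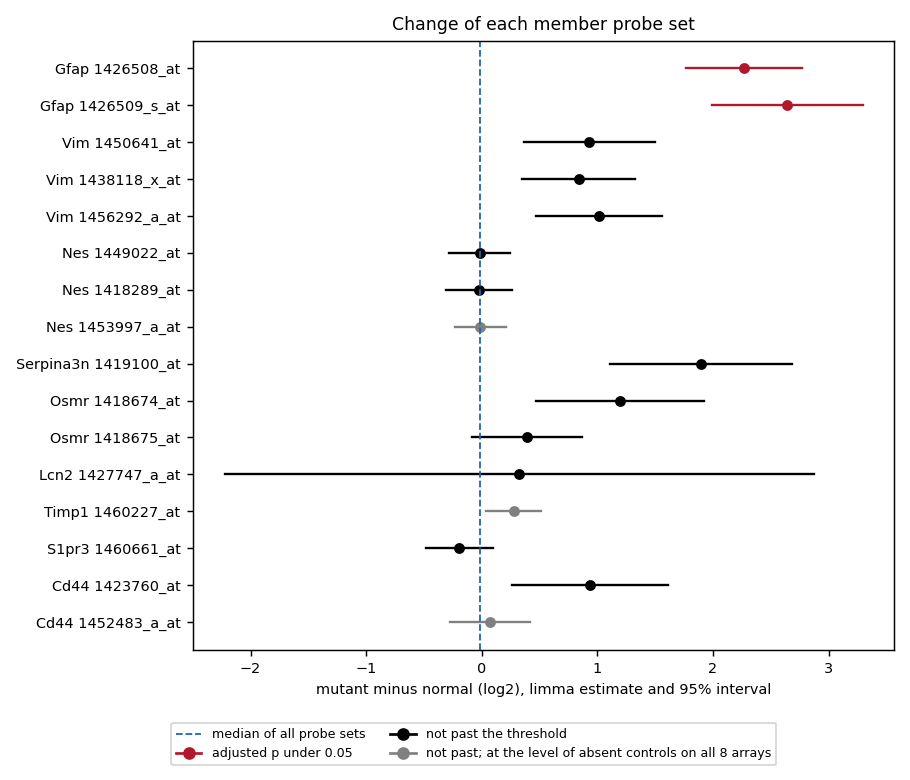
Mutant minus normal difference in log2 expression for the 16 probe sets (points) with 95% intervals from limma (lines), n = 4 animals each. The 2 Gfap probe sets, at 2.27 and 2.64, are the ones past the threshold, and the dashed line at -0.012 is the median over all 22626 probe sets.

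Animals of the same age and sex gave the Gfap difference separately at 38.3 and at 25.6 weeks. Mutant 1 exceeded normal 1, both females of 38.3 weeks, by 2.20 on both Gfap probe sets. Mutants 2 and 3 exceeded normal 2, all males of 25.6 weeks, by 1.596 and 2.39 on 1426508_at and by 2.22 and 2.62 on 1426509_s_at. Gfap was thus higher in each mutant that had a match, at either age. Serpina3n differed by 3.03 at 38.3 weeks and by 0.92 and 0.47 at 25.6 weeks. Osmr 1418674_at had the opposite order, with 0.11 at 38.3 weeks and 1.23 and 1.70 at 25.6 weeks. These are single animals, and normal 1 is the array with the high 3 prime minus 5 prime value.

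Among the normals, Gfap values lay in the order of age. Normal 4, the youngest, also had the lowest normal mean of microglia (6.99), meningeal (5.12) and endothelial genes (6.22), but not of general astrocyte genes (9.53). Age and tissue content therefore cannot be told apart in this order. Probe set 1426508_at read 7.08 at 14.6, 7.48 at 19.6, 7.73 at 25.6 and 7.80 at 38.3 weeks, and 1426509_s_at kept the same order. In mutants 1426508_at read 9.72 at 19.6 weeks, 9.33 and 10.1 at 25.6 weeks and 9.999 at 38.3 weeks. Probe set 1426509_s_at read 8.609 at 19.6 weeks, 8.611 and 9.01 at 25.6 weeks and 9.005 at 38.3 weeks. On both, 1 mutant of 25.6 weeks lay above the oldest, and on the first the other lay below the youngest. With 4 animals a group, an order with age was not tested. With age as a term the Gfap differences were 2.20 (limma adjusted p = 0.0153) and 2.53 (adjusted p = 0.00681), close to those without it, although no mutant was as young as normal 4.

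**Figure D3:**
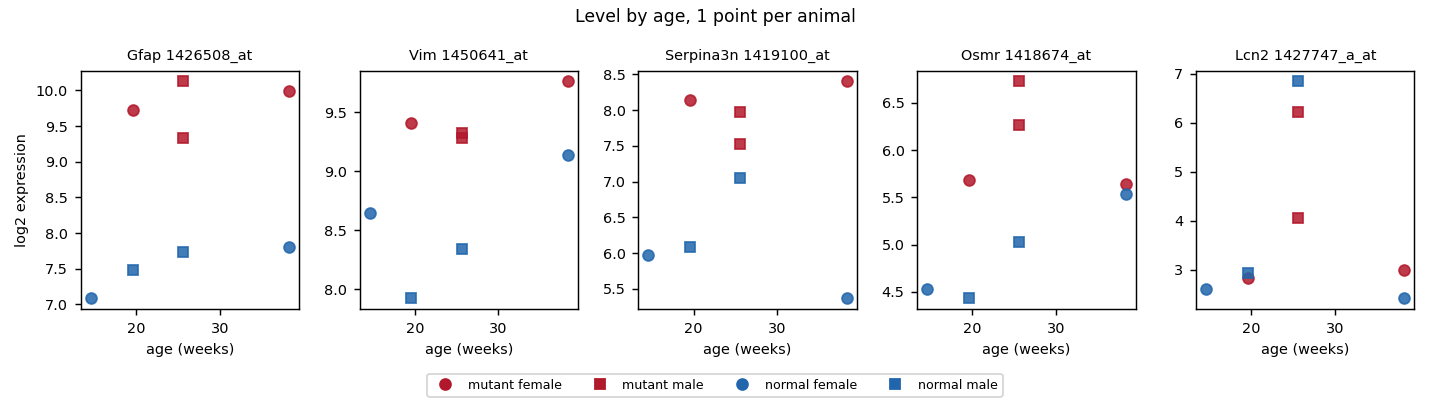
Log2 expression of Gfap, Vim, Serpina3n, Osmr and Lcn2 against age in weeks, 1 point per animal, mutants in red and normals in blue, with circles for females and squares for males. Gfap in mutants lies above every normal at each age, while the 3 highest Lcn2 values, 4.06, 6.23 and 6.84, belong to males of 25.6 weeks in both groups.

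The sexes were compared by the interaction of genotype and sex, with 2 animals in each cell. The normal females were normal 1 (38.3 weeks), whose RNA stood apart, and normal 4 (14.6 weeks), the youngest animal. Sex therefore cannot be told apart from age or RNA quality here. For Gfap 1426508_at the mutant difference was 2.42 in females and 2.12 in males, and these differed by 0.30 ± 0.49 (SE, limma adjusted p = 0.848). For Serpina3n it was 2.60 in females and 1.18 in males, a gap of 1.42 ± 0.53 (SE) that did not pass (adjusted p = 0.450). For Osmr 1418674_at it was 0.63 in females and 1.76 in males, a gap of -1.14 ± 0.53 (SE, adjusted p = 0.512). For Vim 1456292_a_at it was 0.65 in females and 1.37 in males (adjusted p = 0.449). Over all 22626 probe sets limma called 0 interactions (0.0%), while 2387 (10.5%) had an unadjusted p under 0.05.

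No partner gene of the members passed the test, but more had higher than lower means. The 8 partner lists held 109 measured genes, each read by its brightest probe set, of which 0 passed in limma over all probe sets, against 0.105% of 12393 genes. At an unadjusted p under 0.05, 17 were higher and 4 lower, against 4.04% and 2.47% of all genes. Of the 109, 74 had higher and 35 lower means, beside 6509 and 5884 over all genes. The median difference was 0.12, beside 0.011 over all genes. The lists were unlike: 29 of 33 further reactive astrocyte genes had higher means, but 11 of 20 in gp130 signalling and 7 of 14 around CD44. Every mutant lay above every normal for 6 of the 109 and below for 3, against 2.27% and 1.61% of all genes. Osm, Cntf, Spp1 and Cd63 were not analysed here.

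In gp130 and STAT3 signalling, 11 of 20 genes had higher and 9 lower means, with a median of 0.0028. The cytokine Il6 stayed at the level of absent controls on all arrays. The shared receptor gene Il6st differed by 0.31 and the related receptor gene Lifr by -0.0091. Stat3, the transcription factor gene, averaged 8.31 ± 0.13 in mutants and 7.87 ± 0.27 in normals (SD, n = 4 each), a difference of 0.43 (limma adjusted p = 0.786). Socs3, a STAT3 target that inhibits the pathway, read 4.84, 4.90, 5.05 and 4.77 in mutants 1 to 4, against 4.48, 4.70, 4.53 and 4.53 in normals 1 to 4. Its groups did not overlap, but its difference of 0.33 did not pass (adjusted p = 0.706). Pias3, an inhibitor of STAT3, differed by 0.68 (adjusted p = 0.706).

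Medians near 0 depended on how probe sets were combined: with the mean of all probe sets of a gene they were -0.0049 for gp130 and STAT3, -0.012 for filaments, -0.029 for CD44 and -0.096 for serpins.

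Among 11 other filament and linker genes, 7 had higher means (median 0.095). The smallest p values were those of the nuclear lamina gene Lmna (0.57, limma adjusted p = 0.478) and of Bfsp1, a lens filament gene (0.21, adjusted p = 0.905). The neurofilament genes Nefl, Nefm and Nefh differed by -0.094, -0.012 and 0.34.

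Among 9 sphingosine 1-phosphate genes the median was 0.027. Sphk1, which makes the ligand, averaged 4.82 ± 0.22 in mutants and 4.28 ± 0.20 in normals (SD, n = 4 each), with no overlap (0.54, limma adjusted p = 0.555). The receptor genes S1pr1 (-0.52) and S1pr5 (-0.92), the latter a gene of oligodendrocytes, had lower means and did not pass.

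Of 15 metalloproteinase and inhibitor genes, 9 had higher means (median 0.082). Beside the undetected Timp1, the inhibitor genes Timp2 (0.62), Timp3 (0.78) and Timp4 (0.041) were well measured and did not pass. The proteases Mmp2 and Mmp14 differed by 0.082 and 0.28. Adamts4, a proteoglycan-cleaving protease of oligodendrocytes, had the smallest p in the list, with a lower mean (-0.81, limma adjusted p = 0.237).

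Of 14 hyaluronan, ligand and adaptor genes around CD44, 7 had higher means (median 0.013), led by p by the actin linker gene Msn (0.56, limma adjusted p = 0.813) and Has1, a hyaluronan synthase gene (-0.29, adjusted p = 0.843). Of 10 genes around lipocalin 2, 8 had higher means (median 0.19). They included Tnfrsf1a, a tumour necrosis factor receptor gene (0.61, adjusted p = 0.519), Il1r1, an interleukin 1 receptor gene (0.57), and Slc22a17, a proposed lipocalin 2 receptor gene (0.19). Only 3 of 12 listed serpins were measured, with Serping1, a complement inhibitor gene, at 0.81 (adjusted p = 0.538) and Serpina1b at the level of absent controls.

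Of 33 further genes reported in reactive mouse astrocytes, 29 had higher means (median 0.29), beside 6509 of 12393 over all genes, and 6 of the 33 also stand in the lists above. By p they were led by H2-D1, an MHC class I gene (0.86, limma adjusted p = 0.456), and Serping1. In limma 0 passed, and at an unadjusted p under 0.05 8 were higher and 0 lower, against 4.04% and 2.47% of all genes. Every mutant lay above every normal for 3 of the 33 and below for 0, against 2.27% and 1.61% of all genes. Their mean spanned 6.39 to 6.55 in mutants and 5.65 (normal 4) to 6.35 (normal 1) in normals. Some higher means went with a low normal 4, where Mt1 read 8.85, against 11.1 to 11.7 in the other normals. General astrocyte genes, 21 measured, had 18 higher means (median 0.21), with the water channel gene Aqp4 at 0.76 (adjusted p = 0.563) and the transcription factor gene Sox9 at 0.58 (adjusted p = 0.688). Averaged over the list, the mutants spanned 9.62 to 9.89 and the normals 9.44 to 9.68, so the groups overlapped.

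Likeness to Gfap was described over 10003 other genes above the absent controls in all mutants, a filter on the group where Gfap is high. The highest Pearson r with Gfap 1426508_at over 8 arrays were those of Adgre1 (0.971), Flvcr2 (0.9696), Lyz2 (0.968), Mpeg1 (0.966) and Lyz1 (0.959). Adgre1, Mpeg1 and the lysozyme genes Lyz1 and Lyz2 are macrophage and microglia genes, and Flvcr2 encodes a membrane transporter. For all 5, every mutant lay above every normal, as for Gfap, so these r largely restate the separation of the groups. When each array was taken as its deviation from its group mean, the highest r were those of Efna1 (0.978), Prss37 (0.973), Adamts1 (0.964), Tlx1 (0.963) and Clec4g (0.949), whose mutant and normal ranges overlapped. Picked as the highest of 10003 genes on 8 arrays, these r are high by selection. Tlx1 spanned only 4.21 to 4.46, and Clec4g only 3.72 to 3.98, close to the highest absent control. Within groups the second Gfap probe set followed the first (r = 0.851), whereas Serpina3n (-0.023) and Vim 1450641_at (0.22) did not follow it closely.

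Markers of other cell types differed too, some lists higher in mutants like the members and some lower. Of 15 microglia and macrophage genes, 12 had every mutant above every normal, against 2.27% of all genes. In limma 3 of the 15 rose (Cd68, Adgre1 and Mpeg1), against 12 of 12393 over all genes. Averaged over the list, the mutants spanned 8.40 to 8.60 and the normals 6.99 to 7.71. The means of 13 of 13 meningeal and 10 of 10 choroid plexus genes were higher in mutants. Limma passed 0 in either list, with 8 and 5 higher at an unadjusted p under 0.05, against 4.04% of all genes. The means of 13 of 13 endothelial genes (median 0.26) and 3 of 3 ependymal genes (median 0.54) were higher in mutants too, and 0 passed. The endothelial mean spanned 6.83 to 7.15 in mutants and 6.22 to 6.94 in normals. The choroid plexus mean was 7.86 in mutant 1 and 6.99 in mutant 3, against 5.19 and 5.24 in mutants 2 and 4 and 4.402 to 5.26 in normals. Thalamus and habenula genes had 9 of 9 higher means. Lower means were seen for 7 of 10 neuron, 3 of 3 CA1 and 7 of 7 striatal genes (medians -0.40, -0.61 and -2.33). Over all genes 5884 of 12393 had lower means. Oligodendrocyte genes had 10 of 10 lower means and averaged 9.03 to 9.70 in mutants and 10.1 to 10.7 in normals. At an unadjusted limma p under 0.05, 7 striatal and 8 oligodendrocyte genes were lower, against 2.47% of all genes, and 0 passed. The part of these cells in the Gfap, Vim, Serpina3n, Osmr and Cd44 values was not tested. Without mutants 1 and 3 the Gfap differences were 1.9995 and 2.44 and did not pass (limma adjusted p = 0.214 and 0.396).

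**Figure D4:**
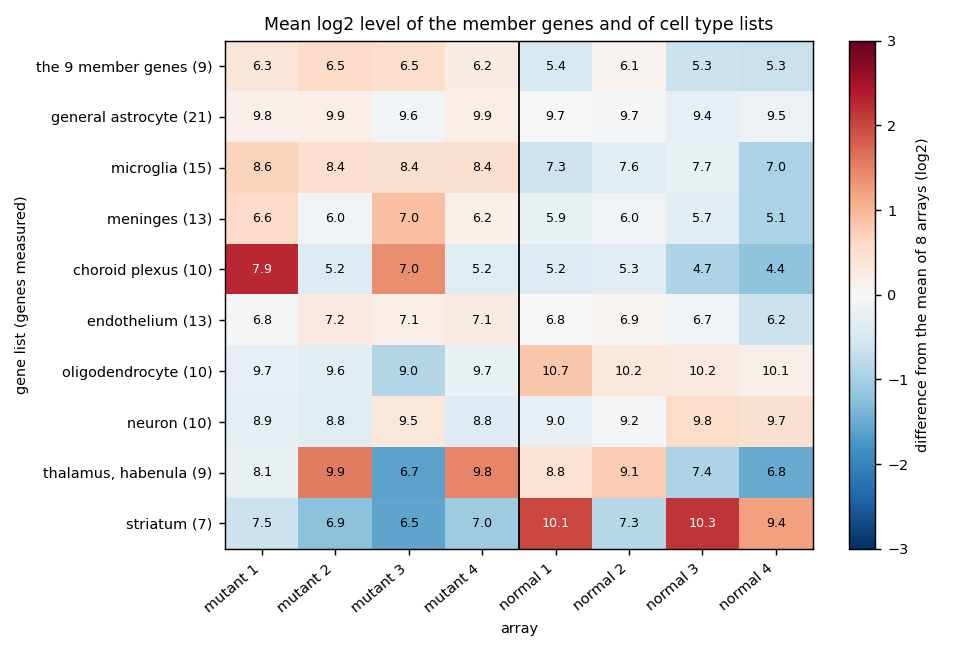
Mean log2 level of the 9 member genes (brightest probe set each) and of cell type lists on each array, mutants left of the line and normals right; colours show the difference from the mean over 8 arrays. The members average 6.15 to 6.52 in mutants and 5.28 to 6.05 in normals, where normal 2, the array with high Lcn2, is highest. The microglia row separates the groups, while the thalamus row varies within them. The striatum row is lower in mutants (6.52 to 7.47) than in normals 1, 3 and 4 (10.1, 10.3 and 9.35), with normal 2 at 7.25.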

How the data were processed

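One Affymetrix array per animal was analysed for 4 mutant and 4 normal mice. Per the submitters' processing notes, the authors used GCOS 1.4 and RMA, and the deposited values are log2 expression per probe set, the log2 scale being read from their range. The genome build is not given in the sources used here. Of 22690 probe sets, 64 controls were left out. Of the other 22626, 20380 carry 1 gene symbol, 691 several and 1555 none listed.

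All 22626 were fitted with limma 3.58.1 in R 4.3.3 (lmFit, eBayes) as mutant minus normal, with Benjamini-Hochberg adjustment over all and a threshold of 0.05. A second fit tested genotype by sex. The fits were tested on simulated data. In lists a gene is its brightest probe set. Named are all members and, per partner list, genes past the threshold, the 2 smallest p and preset partners of members. Figures used Python 3.11.15. The members, lists and tests were chosen with earlier results of these data known. The p-values set a difference between groups against the spread between animals, which also holds their differences in age, tissue content and RNA quality.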

Additional observations from a re-analysis of the deposited data

Results flagged for a closer look

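Of the 32 groups of 4 values formed by the 16 probe sets, 3 had 1 array far from the other 3, measured as the gap to the nearest value over the whole range of the group. Chance alone would give about 1 in 20 groups. Osmr 1418675_at was high in mutant 3 (4.23), with a gap of 0.957 of the range, where the other mutants lay within the absent controls. Lcn2 was high in normal 2 (6.84), with a gap of 0.882 of the range. S1pr3 was high in mutant 1 (4.84), with a gap of 0.844 of the range. In limma's interaction of genotype and sex, 0 of the 16 probe sets passed after adjustment and 3 had an unadjusted p under 0.05, against 10.5% of all probe sets.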

How the results depend on the processing

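The member differences kept their direction under the alternatives run for Gfap, Vim, Serpina3n, Osmr, Timp1, S1pr3 and Cd44 1423760_at. Gfap 1426508_at stayed between 1.9995 and 2.42 over 21 alternatives and passed in 13, and 1426509_s_at between 2.28 and 2.93 over 19 and passed in 10. Of the member probe sets, 2 passed, and 1 with 1 probe set per gene or without probe sets named _x_at or _s_at, where 1 Gfap probe set is left out. It was 0 with sex as a covariate, without normals 1 and 3, without mutants 1 and 3 and with only ages of 25.6 weeks and over, and 0 to 3 when 1 animal was left out. Settings that drop 2 or more animals were chosen after seeing the data. Over all probe sets, 18 rose and 2 fell. These counts were 50 and 10 with array weights, 7 and 0 with sex, 10 and 0 with age, 6 and 0 without normals 1 and 3, 3 and 0 without mutants 1 and 3, and 0 and 0 with only ages of 25.6 weeks and over. They were 6 to 15 and 0 to 12 when 1 animal was left out, and 1 probe set per gene left 1 that fell. The interaction count was 0, and 0 to 1 when 1 animal was left out. Signs turned only for differences that did not pass. Lcn2 was -0.12 with array weights, -0.70 without normals 1 and 3, -0.20 with only ages of 25.6 weeks and over, and -0.41 to 1.37 with 1 animal left out. Nes 1418289_at was 0.0047 without normals 1 and 3 and -0.092 to 0.031 with 1 animal left out. Nes 1449022_at was 0.024 with array weights, 0.049 without normals 1 and 3 and -0.081 to 0.028 with 1 animal left out. Nes 1453997_a_at was 0.018 with quantile normalization, 0.036 with array weights, 0.032 without mutants 1 and 3 and -0.048 to 0.026 with 1 animal left out. Cd44 1452483_a_at was -0.17 without normals 1 and 3 and -0.041 to 0.16 with 1 animal left out. Some of these settings held fewer probe sets or animals and some did not, and the cause of the changes was not tested. Probe sets at the level of absent controls carry no usable fold. With age in weeks as a random block (limma's duplicateCorrelation), Gfap differed by 2.30 and 2.70 (limma adjusted p = 0.0184 and 0.0369), and 15 probe sets rose and 2 fell. No paired analysis was possible by replicate number, because the labels give none. With the mean of all probe sets of a gene in place of the brightest, 4 partner list medians turned sign: -0.012 for filaments, -0.0049 for gp130 and STAT3, -0.029 for CD44 and -0.096 for serpins.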

Other observations

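Lcn2 was compared with other genes after its values were seen. Among 3269 probe sets of other genes that varied by over 1.5 across the arrays, the highest Pearson r with Lcn2 over 8 arrays were those of Sh3d19 (0.838), Lrg1 (0.814) and S100a8 (0.808). S100a8, a neutrophil and inflammatory calcium-binding protein gene, read 3.80, 4.88, 5.24 and 4.13 in mutants 1 to 4, against 4.0045, 6.80, 5.01 and 3.42 in normals 1 to 4. Lrg1, an acute-phase glycoprotein gene, read 4.41, 4.34, 4.28 and 3.78 in mutants 1 to 4, against 3.80, 5.72, 4.17 and 3.72 in normals 1 to 4. Chosen by their r with Lcn2, all 3 were highest in normal 2, where Lcn2 was highest too. In mutant 2, the second highest for Lcn2 (6.23), Sh3d19 (4.97) was second highest as well. There S100a8 lay below mutant 3 and normal 3, and Lrg1 below mutant 1. None of the 3 genes passed by genotype (limma adjusted p from 0.952 to 0.978).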
